A study of Mus musculus with 8 samples.

Results

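The genes described here are 10 mouse genes of antioxidant defence and cystine uptake: Slc7a11, Hmox1, Nqo1, Gclm, Gclc, Txnrd1, Srxn1, Prdx1, Sod2 and Nfe2l2. They were chosen by symbol, each probe being named through the RefSeq accession on the array. The choice was made with earlier results of these data known. All 10 were measured, out of 19117 genes tested, and each was well above background on all 8 arrays. The cells were primary microglia, the resident macrophages of the brain, from C57BL/6 mice. They were kept for 3 h with PBS, with Fc, or with a fragment of Ecrg4 joined to Fc, either Fc-fused Ecrg4(71-132) or the construct Fc-fused Ecrg4(133-148). The 3 recombinant proteins were used at 20 µg/ml. Ecrg4 is a secreted precursor protein, and the labels number its residues 71 to 132 and 133 to 148 in the fragments. Fc, the constant part of an antibody, is the carrier of both fragments and their control at the same dose, and PBS is the buffer. The cells carried no genetic change, and the age of the mice and the number pooled are not given in the sources used here.

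Each treatment was hybridised on 2 one-colour Agilent arrays, 1 in set 1 and 1 in set 2, and per the file headers all 8 lay on 1 slide. The labels call the arrays duplicates but do not say that they came from separate cultures, so the tests measure the spread between these samples. The arrays had 24254 to 29483 probes well above background each, and no spot was saturated. Of 10 microglial markers, 6 were lower and 3 higher in set 2 than in set 1 (limma with treatment as a block, adjusted p under 0.05). Of all genes, 22.8% were lower and 36.4% higher by this test. Cx3cr1, the fractalkine receptor, differed by -6.62 on the log2 scale and the complement gene C1qa by -2.50, while Itgam was 0.66, Cd68 0.48 and Trem2 0.37 higher, and Csf1r, the receptor for colony stimulating factor 1, differed by -0.0098. Markers of astrocytes were lower in set 2 for 7 of the 9 tested and higher for 2, beside the same shares of all genes. All 10 on that list were well above background on each set 1 array but 3 to 7 of them in set 2, so that their differences in or against set 2 are not exact. The summed signal of 5 fibroblast markers was 23.6 to 51.4 times the 75th percentile in set 1 and 0.374 to 0.577 times in set 2. The differences between treatments are therefore given within each set as well.

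NRF2, encoded by Nfe2l2, is a transcription factor that the adaptor Keap1 holds for degradation until oxidants or electrophiles modify Keap1. It then joins a small Maf protein on the antioxidant response element and raises genes that make glutathione, recycle thioredoxin, break down haem and detoxify quinones. Slc7a11 is the light chain of the cystine/glutamate antiporter system xc-, which takes up cystine for glutathione and releases glutamate. ATF4, the factor of the amino acid response, drives it as well as NRF2. Sod2, the mitochondrial manganese superoxide dismutase, is best known in macrophages as a gene driven by NF-kB, the factor that toll-like and cytokine receptors release from its inhibitors. In microglia these genes take part in the response to the cell's own oxidants.

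The promoters of 5 members are printed because they show which known elements lie close to the start of the 3 genes that differed most with Ecrg4(71-132), of Gclm, which differed little, and of Sod2. Each window is 300 bases, with 250 before and 50 after the RefSeq start site, on build GRCm38.p6. Capitals mark matches, on either strand, to the antioxidant response element core TGACNNNGC, the ATF4 element TGATGNAA, the AP-1 site TGANTCA or the NF-kB consensus. Slc7a11 lies on the minus strand at chr3:50443564-50443863. Txnrd1 is shown at chr10:82858956-82859255, the window with a match among its 3, Srxn1 at chr2:152105274-152105573, Gclm at chr3:122245307-122245606 and Sod2 at chr17:13007589-13007888, all on the plus strand.
Slc7a11: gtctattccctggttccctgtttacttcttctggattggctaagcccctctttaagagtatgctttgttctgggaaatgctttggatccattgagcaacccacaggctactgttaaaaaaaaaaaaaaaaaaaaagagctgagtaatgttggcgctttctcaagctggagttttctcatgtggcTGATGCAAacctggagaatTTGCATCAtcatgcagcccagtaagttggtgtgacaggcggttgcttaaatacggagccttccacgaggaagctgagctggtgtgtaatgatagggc
Txnrd1: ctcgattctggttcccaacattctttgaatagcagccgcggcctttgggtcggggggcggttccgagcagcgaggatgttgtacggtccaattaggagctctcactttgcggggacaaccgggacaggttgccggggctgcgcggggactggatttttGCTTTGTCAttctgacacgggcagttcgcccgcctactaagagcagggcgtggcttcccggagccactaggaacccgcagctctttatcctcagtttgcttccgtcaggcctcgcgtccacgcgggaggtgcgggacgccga
Srxn1: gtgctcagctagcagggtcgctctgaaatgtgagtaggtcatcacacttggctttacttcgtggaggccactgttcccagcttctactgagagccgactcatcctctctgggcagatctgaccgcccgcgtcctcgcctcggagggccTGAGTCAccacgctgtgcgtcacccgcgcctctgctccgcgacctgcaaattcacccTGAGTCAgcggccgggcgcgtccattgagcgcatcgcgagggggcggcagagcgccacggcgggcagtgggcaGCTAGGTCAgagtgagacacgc
Gclm: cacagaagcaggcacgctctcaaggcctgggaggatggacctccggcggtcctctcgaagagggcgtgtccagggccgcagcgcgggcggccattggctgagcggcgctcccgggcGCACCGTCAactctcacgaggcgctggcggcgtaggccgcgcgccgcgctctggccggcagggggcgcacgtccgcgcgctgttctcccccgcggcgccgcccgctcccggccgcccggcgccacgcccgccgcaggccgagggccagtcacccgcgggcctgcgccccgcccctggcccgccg
Sod2: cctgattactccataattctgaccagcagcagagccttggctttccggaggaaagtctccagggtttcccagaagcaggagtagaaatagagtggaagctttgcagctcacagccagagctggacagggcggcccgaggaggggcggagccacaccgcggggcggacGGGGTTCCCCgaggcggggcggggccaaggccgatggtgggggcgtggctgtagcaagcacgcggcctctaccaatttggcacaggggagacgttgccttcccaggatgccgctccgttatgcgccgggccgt
The Slc7a11 window holds 2 facing ATF4 elements, TGATGCAA and TTGCATCA, which begin 66 and 47 bases before the start site, and no match to the antioxidant response element. Txnrd1 and Gclm each hold 1 antioxidant response element core, beginning 92 and 134 bases before the start, and Srxn1 holds one that begins 29 bases after it, together with 2 AP-1 sites. The Sod2 window has 1 match to the NF-kB consensus, GGGGTTCCCC, which reads the same on both strands and begins 83 bases before the start, and none to the other motifs. Of the 8 members with a promoter entry, 5 hold the antioxidant response element core (also Prdx1 and Nfe2l2), where 12.4% of all 32851 promoter windows do. An AP-1 site was found in 2 members and in 7.81% of windows, and it can overlap the other core, as it does in Prdx1. The ATF4 element lies in 1 member and in 3.97% of windows. The NF-kB consensus lies in 2 members, Sod2 and Prdx1, and in 8.46% of windows. A stricter spelling of it, with fixed bases in place of its variable purine and pyrimidines, was found in 0 members and in 1.47% of windows. Hmox1 and Gclc have no entry. A match is a string of letters and not a bound site.

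Slc7a11 had the largest differences of the 10. Signals are log2 values relative to each array's 75th percentile, so that 1 unit is a 2-fold difference, and they are given in the order PBS, Fc, Ecrg4(133-148) and Ecrg4(71-132). In set 1 it stood at 0.91, 1.29, 1.68 and 2.41. In set 2 it stood at 1.17, 1.46, 2.58 and 3.58. The order of the treatments was the same in both sets, and both arrays of Ecrg4(71-132) lay above all 4 arrays of PBS and Fc. Against Fc, Slc7a11 was 2.17-fold higher with Ecrg4(71-132) in set 1 and 4.34-fold in set 2, a mean of 1.62 on the log2 scale (SE 0.47, 95% interval 0.43 to 2.81, n = 2 arrays per group; limma adjusted p = 1 over all genes).

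Hmox1 encodes haem oxygenase-1, which splits haem into biliverdin, iron and carbon monoxide. It stood at 7.61, 7.83, 8.06 and 8.31 in set 1. In set 2 it stood at 6.78, 6.88, 7.48 and 7.58. Every array of set 2 lay below every array of set 1, so that the groups overlap over both sets, while within each set the treatments fell in the same order. With Ecrg4(71-132) it was higher than with Fc by 0.47 in set 1 and 0.70 in set 2, the mean being 0.58 (SE 0.49). The difference between the sets enters that SE, which was 0.11 with the set as a block. A second, dimmer Hmox1 probe gave differences of the same sign in both fragments and both sets.

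Txnrd1, the cytosolic thioredoxin reductase, and Srxn1, the sulfiredoxin that repairs overoxidised peroxiredoxins, moved most alike of the 45 pairs of members. The signals of Txnrd1 were 6.05, 6.16, 6.27 and 6.54 in set 1 against 5.49, 5.74, 6.26 and 6.93 in set 2. Those of Srxn1 were 6.01, 6.21, 6.26 and 6.59 in set 1 against 5.35, 5.47, 5.97 and 6.60 in set 2. The Ecrg4(71-132) arrays of both genes lay above the other 6. Against Fc, Txnrd1 was higher with Ecrg4(71-132) by 0.38 and 1.19 in the 2 sets (mean 0.78, SE 0.27) and Srxn1 by 0.38 and 1.13 (mean 0.75, SE 0.34). With the set taken out of each gene, their signals differed by a root mean square of 0.0557 over the 8 arrays. Prdx1, a cytosolic peroxiredoxin that Srxn1 repairs, differed little, with 7.26, 7.37, 7.53 and 7.66 in set 1 against 8.44, 8.48, 8.55 and 8.55 in set 2. Its difference between Ecrg4(71-132) and Fc was 0.29 in set 1 and 0.071 in set 2, and 0.38 and 0.39 by its second probe.

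The 2 subunits of glutamate-cysteine ligase, the enzyme of the first and limiting step of glutathione synthesis, stayed nearly level between treatments. Gclm, the modifier subunit, gave 1.89, 1.96, 2.01 and 2.16 in set 1 against 1.23, 0.94, 1.09 and 1.15 in set 2. In set 2 its PBS array was the highest, so that Ecrg4(71-132) lay above Fc but below PBS. Gclc, the catalytic subunit, gave 3.86, 3.84, 3.78 and 3.81 in set 1 against 2.76, 2.79, 2.82 and 2.66 in set 2. It was the only member lower with Ecrg4(71-132) than with Fc in both sets, by -0.036 and -0.14. Its 4 treatments lay within 0.0804 on the log2 scale in set 1 and within 0.163 in set 2. Nqo1, the quinone reductase often used as a readout of NRF2, gave -1.28, -1.16, -0.94 and -1.03 in set 1 against -1.28, -1.47, -1.11 and -1.11 in set 2. Both fragments lay above Fc in each set, by 0.12 to 0.36.

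Sod2 had signals of 6.93, 7.24, 7.23 and 7.58 in set 1, while set 2 gave 7.08, 7.35, 7.78 and 8.24. With Ecrg4(71-132) it was the highest of its set in each. It was higher than with Fc by 0.34 in set 1 and 0.89 in set 2, and the mean was 0.61 (SE 0.29). With Ecrg4(133-148) it lay at the level of Fc in set 1, the difference being -0.0066, and 0.43 above it in set 2. Nfe2l2 itself, whose product is controlled mainly by its breakdown and not by its transcript, had 5.14, 5.28, 5.26 and 5.29 in set 1 against 4.85, 5.20, 5.50 and 5.54 in set 2. In set 1 it differed from Fc by 0.014 with Ecrg4(71-132) and by -0.020 with Ecrg4(133-148), and in set 2 both fragments lay above Fc.

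**Figure D1:**
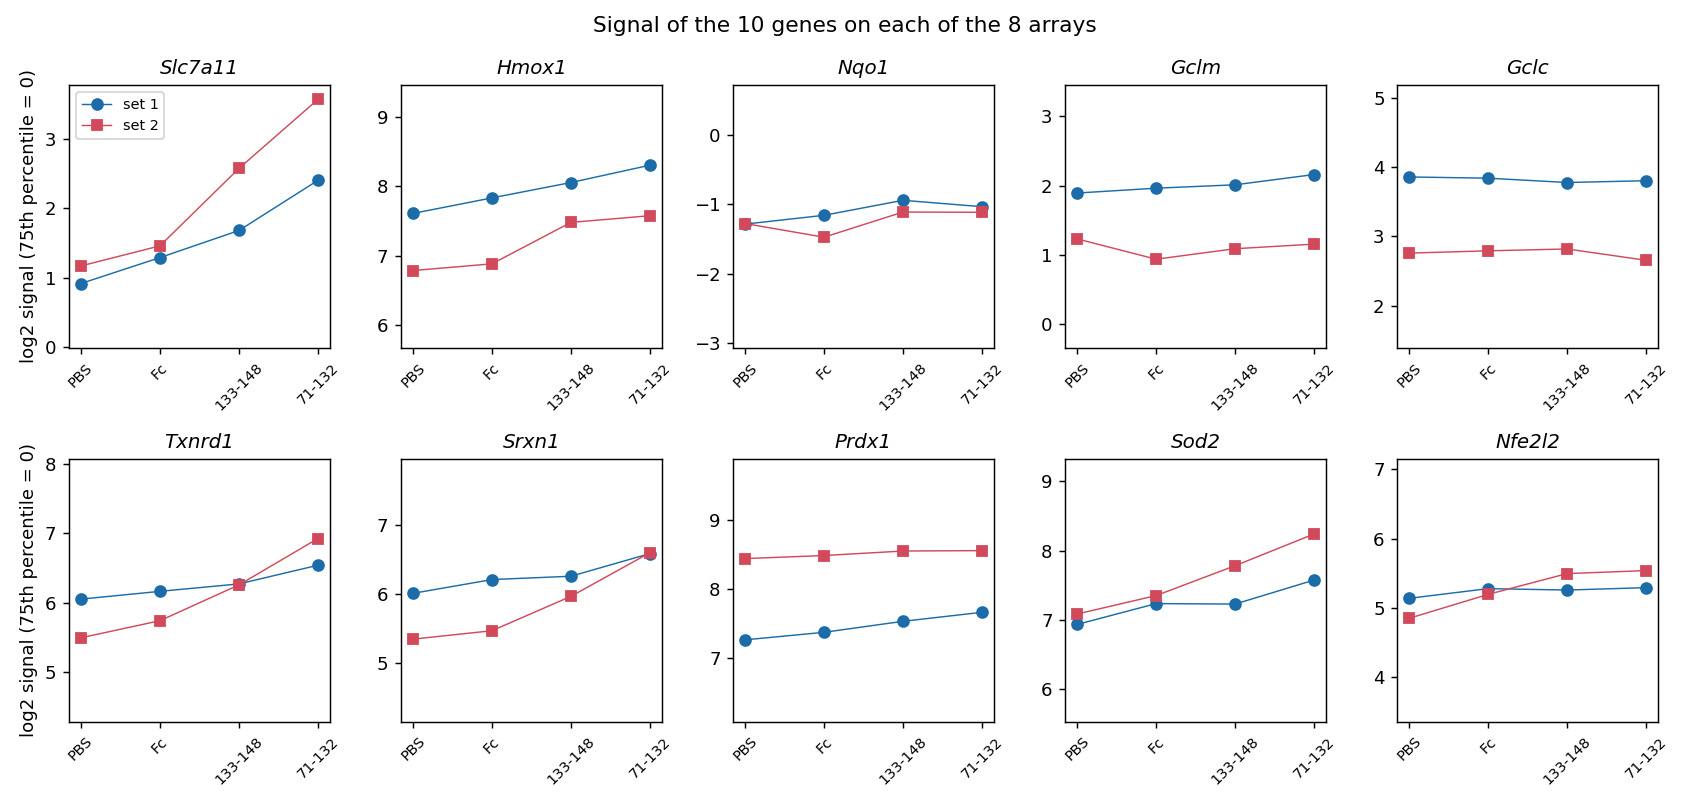
Log2 signal of each of the 10 genes (vertical axis, 75th percentile of the array = 0, the same span of units in every panel) by treatment (horizontal axis), with 1 point per array and lines joining the arrays of a set. Slc7a11 climbs from 0.91 to 2.41 in set 1 and from 1.17 to 3.58 in set 2, while Gclc stays flat with set 2 lower.

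Taking the 10 genes with Ecrg4(71-132) against Fc, 9 were higher in both sets, where 28.5% of all genes tested were. The 10 were chosen with earlier results of these data known. Such counts, here and in the other comparisons, therefore describe them and are not tests. Gclc was lower in both, as 36.4% of all genes were. With quantile normalization the count was 8, without Nfe2l2. The median difference of the 10 was 0.41, beside -0.017 over all genes. Of the 9 astrocyte markers tested, 5 were higher in both sets in this comparison and 0 lower. Their median was 0.45 within set 1 but 0.078 within set 2, and their part in the differences was not tested. Slc7a11 alone was over 2-fold higher in both sets, as were 0.46% of all genes. No member passed the test (limma over 4 group means, adjusted p = 1 for each). Of all genes 0% were called in either direction, with 643 at an unadjusted p under 0.05. Such counts are not calls, as a share of about 0.05 of genes falls there when nothing differs. When the set was a block no gene was called either, with 3558 at an unadjusted p under 0.05. The smallest adjusted p among the members was then 0.207, for Slc7a11 and Hmox1. The interval for Slc7a11 with the block was 0.86 to 2.37, that for Hmox1 0.30 to 0.87, for Txnrd1 0.12 to 1.44, for Srxn1 0.21 to 1.30 and for Sod2 0.17 to 1.06. Those of Nqo1, Gclm, Gclc, Prdx1 and Nfe2l2 included 0. When the first Ecrg4(71-132) array was left out with the block, 481 genes were called, and the adjusted p was 0.0638 for Slc7a11 and 0.0736 for Srxn1.

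With Ecrg4(133-148) against Fc, 7 of the 10 were higher in both sets, beside 28.5% of all genes, and Gclc, Sod2 and Nfe2l2 were not. With median scaling the count was 8, with Sod2. The median difference of the 10 was 0.24. The median of the astrocyte markers was 0.016 within set 1 but 0.97 within set 2, with 3 of 9 higher and 2 lower in both sets. Lower in both sets were 5846 of all 19117 genes. The part of these markers was not tested here either. Slc7a11 was 0.39 higher in set 1 and 1.12 in set 2, Hmox1 0.22 and 0.60, and Nqo1 0.22 and 0.36. Txnrd1 was 0.11 and 0.52 higher, and Srxn1 0.048 and 0.50. By limma none passed (adjusted p = 1, or 0.836 at the smallest when the set was a block), and 0% of all genes were called, with 88 at an unadjusted p under 0.05 and 1006 with the block. With the block, the interval excluded 0 for Slc7a11 (0.0035 to 1.51), Hmox1 (0.13 to 0.69) and Nqo1 (0.034 to 0.55).

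**Figure D2:**
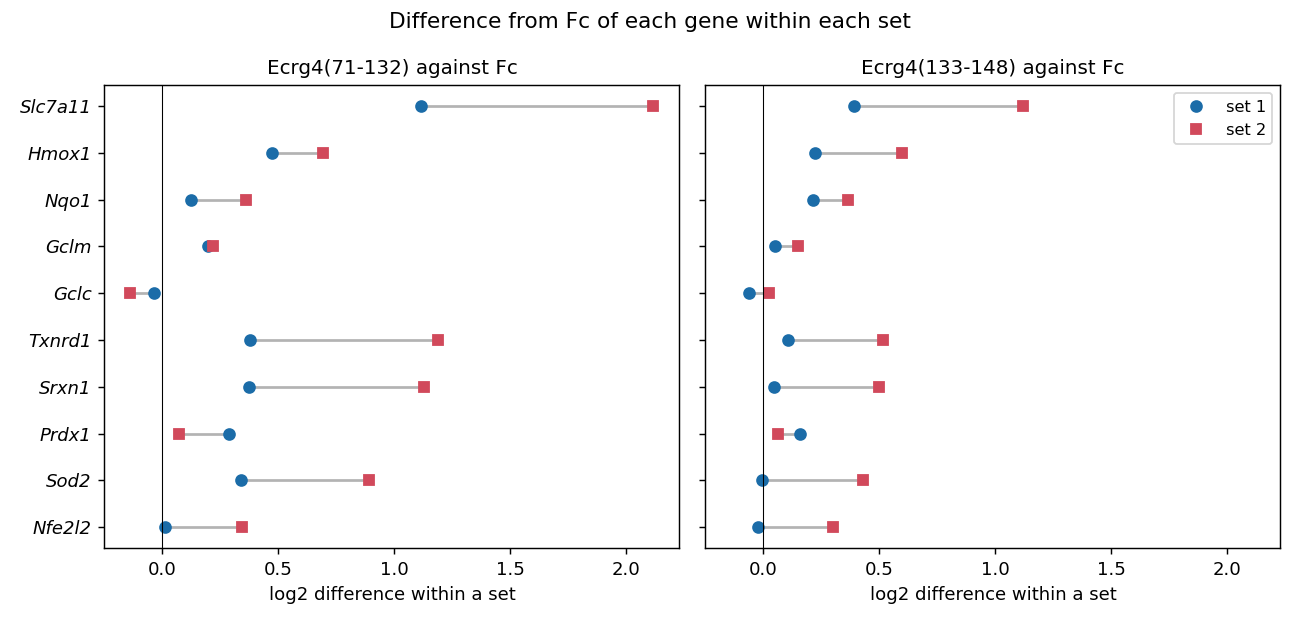
Difference from Fc in log2 signal (horizontal axis) of each gene (vertical axis) with Ecrg4(71-132) in the left panel and Ecrg4(133-148) in the right, with 1 point per set and a grey line between the sets. Slc7a11 lies farthest right in both panels, at 1.12 and 2.12 and at 0.39 and 1.12, and Gclc lies at or near 0.

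The 2 fragments, which differ in the stretch of Ecrg4 they carry, were also compared directly at the same dose and time. Slc7a11 was lower with Ecrg4(133-148) than with Ecrg4(71-132) by -0.72 in set 1 and -0.997 in set 2 (mean -0.86, 95% interval -2.05 to 0.33, and -1.61 to -0.11 with the set as a block). Srxn1 was lower by -0.33 and -0.63, Txnrd1 by -0.27 and -0.67, and Sod2 by -0.35 and -0.46. Hmox1 differed less, by -0.25 and -0.096, and its interval with the block ran from -0.46 to 0.11. In all, 8 of the 10 were lower with Ecrg4(133-148) in both sets, beside 23.7% of all genes, and 6 were when arrays were scaled on their median. Nqo1, the 1 member higher in both sets (33.5% of all genes), differed by 0.093 and 0.0040, and its direction did not hold in both sets under median scaling. No gene was called (0%; limma adjusted p = 1 for each member, 0.714 at the smallest with the block), with 141 genes at an unadjusted p under 0.05 and 1210 with the block. The intervals leave room for differences of either sign for every member without the block.

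Fc was set against PBS to see what the carrier did alone. Slc7a11 was 0.37 higher with Fc in set 1 and 0.29 in set 2, Sod2 0.30 and 0.27, Nfe2l2 0.14 and 0.35, and Hmox1 0.22 and 0.097. In all, 7 of the 10 were higher in both sets, beside 39.6% of all genes, and Nqo1, Gclm and Gclc were not. The count was 6 with quantile normalization and with the mean of a gene's probes, both without Prdx1, and 8 with median scaling. No gene was called (0%; limma adjusted p = 1 for each member), with 51 at an unadjusted p under 0.05 and 355 with the block. Of the 17 NF-kB target genes measured, 17 were higher with Fc in both sets (median 0.50). In set 1 the astrocyte markers were lower with Fc than with PBS (median -1.13, beside 0.027 in set 2). Their part in the differences between Fc and PBS was not tested.

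Against PBS the fragments gave larger mean differences than against Fc for Slc7a11, Txnrd1, Srxn1, Sod2 and Hmox1. With Ecrg4(71-132), Slc7a11 was 1.49 higher in set 1 and 2.41 in set 2 (mean 1.95, SE 0.47). Txnrd1 was 0.49 and 1.43 higher, Srxn1 0.57 and 1.25, Sod2 0.64 and 1.16, and Hmox1 0.70 and 0.79. With Ecrg4(133-148), Slc7a11 was 0.77 and 1.41 higher (mean 1.09), Txnrd1 0.22 and 0.76, Srxn1 0.25 and 0.62, Sod2 0.29 and 0.70, and Hmox1 0.45 and 0.70. All 5 were higher in both sets in both comparisons. They had the largest mean differences from Fc with Ecrg4(71-132) among the members, so their count is not a test. Of all 10 members, 8 were higher in both sets in each comparison with PBS, and Gclm and Gclc were not. Of all genes, 34.3% were with Ecrg4(71-132) and 36.3% with Ecrg4(133-148). The comparisons with Fc and with PBS share the fragments' arrays. No gene was called in either (0%; limma, smallest adjusted p among the members 0.926), with 932 and 186 at an unadjusted p under 0.05. With the set as a block the smallest was 0.124, again with no gene called. Slc7a11 passed in 1 setting, with the set as a block and the first Ecrg4(71-132) array left out (adjusted p = 0.0464).

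Within each set, 5 of the 10 genes followed the order PBS, Fc, Ecrg4(133-148), Ecrg4(71-132) from lowest to highest in both: Slc7a11, Hmox1, Txnrd1, Srxn1 and Prdx1. Of all genes, 882 or 4.61% did. The order was not among the planned tests and is the one seen in Slc7a11 and Hmox1 on these arrays. The count for the members therefore describes them and is not a test. Some steps of that order are small. The step from PBS to Fc was at most 0.25 for Txnrd1 and 0.20 for Srxn1, and Prdx1 covered 0.11 in all in set 2, less than a step of Slc7a11. By its second probe Prdx1 did not follow the order in set 2, where PBS (4.95) lay above Fc (4.85). Gclm followed the order in set 1 alone, and Sod2 and Nfe2l2 in set 2 alone. The median span of the 10 over the 4 treatments was 0.44 in set 1 and 0.74 in set 2, beside 0.23 and 0.31 over all genes.

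The sets differed from each other more than the treatments did for several of these genes. In limma with treatment as a block, 36.4% of all genes were higher in set 2 and 22.8% were lower. Among the 10, 1 rose and 3 fell. Prdx1 was higher in set 2 by 1.05 (adjusted p = 0.000413), and Gclc was lower by -1.06 (adjusted p = 0.00024), Gclm by -0.90 (adjusted p = 0.00101) and Hmox1 by -0.77 (adjusted p = 0.00142). In each of these 4 genes every treatment gave the same sign. The other antioxidant enzymes did not share one direction: 10 of 19 were higher in set 2 and 4 lower, and of the other NRF2 targets 13 of 25 were higher and 4 lower. Slc7a11 and Sod2 were 0.62 and 0.37 higher in set 2 and did not pass (adjusted p = 0.0509 and 0.0504), nor did Srxn1, which was -0.42 (adjusted p = 0.0623). The set difference of Slc7a11 was 0.25 with PBS and 0.17 with Fc but 0.90 and 1.17 with the fragments. For Sod2 it was 0.15 and 0.12 with PBS and Fc, and 0.55 and 0.67 with the fragments. Txnrd1 was -0.56 with PBS and 0.39 with Ecrg4(71-132). The microglial, astrocyte and fibroblast markers named above moved with the sets as well, and their part in these differences was not tested. Fewer cells of a type and less RNA per cell cannot be told apart in these bulk samples.

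**Figure D3:**
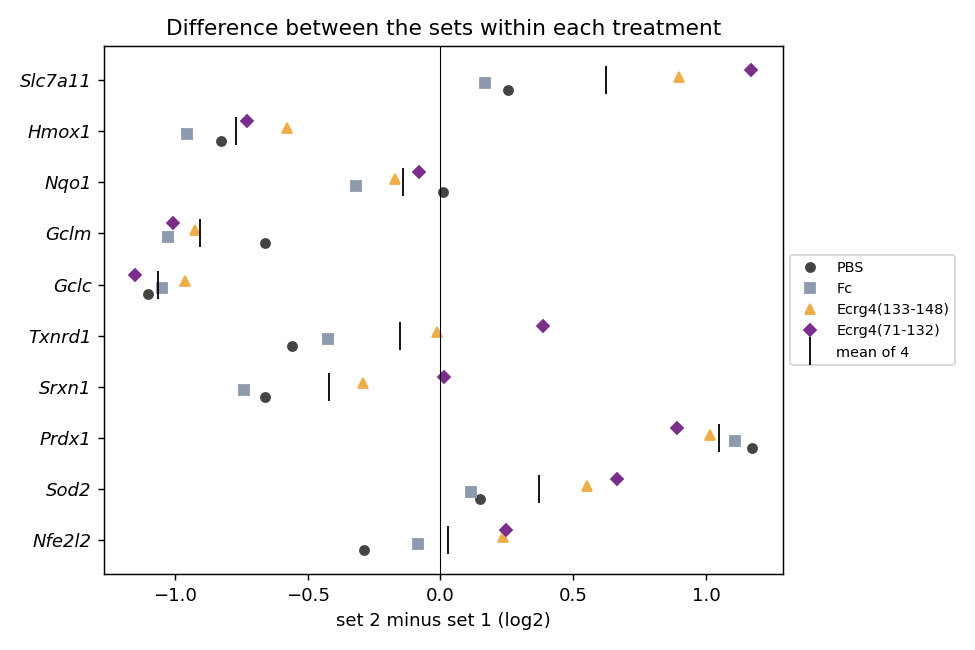
Set 2 minus set 1 in log2 signal (horizontal axis) of each gene (vertical axis), with 1 point per treatment and a black bar at the mean of the 4. Gclc, Gclm and Hmox1 lie left of 0 and Prdx1 right of it in every treatment, while the points of Slc7a11 spread from 0.17 to 1.17.

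Sod2 was set beside the 8 NRF2 target genes among the members and beside 17 NF-kB target genes, within each set. With Ecrg4(133-148) in set 1, Sod2 was -0.0066 from Fc while 7 of the 8 NRF2 targets lay above it, led by Slc7a11 at 0.39. There the NF-kB targets had a median of 0.019, with 10 of 17 above 0. In set 2 the same treatment gave Sod2 0.43, the NRF2 targets a median of 0.43 and the NF-kB targets 0.90. With Ecrg4(71-132) against Fc, Sod2 was 0.34 and 0.89 in the 2 sets, the NRF2 targets had medians of 0.33 and 0.53 and the NF-kB targets 0.44 and 2.01. With Fc against PBS, Sod2 was 0.30 and 0.27, above all NRF2 targets but Slc7a11, whose group had medians of 0.12 and 0.071. The NF-kB targets had medians of 0.31 and 0.70 in that comparison. Under median scaling and in the deposited table Sod2 with Ecrg4(133-148) lay above Fc in both sets, so its sign in set 1 is not settled.

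**Figure D4:**
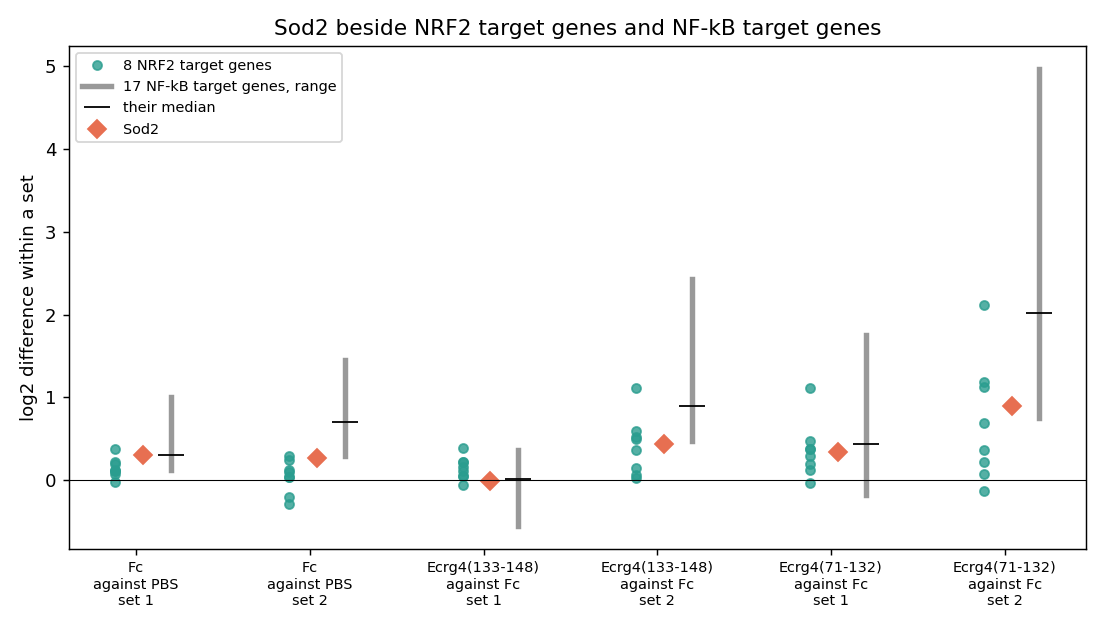
Log2 difference within a set (vertical axis) of Sod2 (orange diamond), of the 8 NRF2 target genes (green points) and of 17 NF-kB target genes (grey bar from lowest to highest, black line at their median), for 3 comparisons in each set (horizontal axis). Sod2 lies at -0.0066 with Ecrg4(133-148) in set 1, near the NF-kB median of 0.019, and in set 2 with Ecrg4(71-132) it lies at 0.89, below the NF-kB median of 2.01.

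Over all 8 arrays Sod2 lay closer to some NRF2 targets than these lay to some others. With each gene's mean in each set taken out, its signal differed by a root mean square of 0.0681 from Srxn1 and 0.0979 from Txnrd1, less than Srxn1 differed from Hmox1 (0.158) or from Slc7a11 (0.413). Its distance from Slc7a11 was 0.44, from Gclm 0.33 and from Gclc 0.38. Such a distance takes in the size of the differences as well as their pattern, and distances to the NF-kB targets are not given. The 5 genes most like Sod2 by this measure, of 11565 well above background on all arrays, were Rnf19b (0.0426), Tnfaip8 (0.0449), Rhbdf2, Hcar2 and Spata5l1. Rnf19b was -0.011 from Fc with Ecrg4(133-148) in set 1, as Sod2 was. Most like Slc7a11 were Gm6377 (0.0658), Met (0.078), Olr1, Ccl4 and Slc39a14. Most like Hmox1 were Klf7 (0.0464), Rrs1, F10, Cebpd and Abcc1 (0.0848), the last an exporter of glutathione conjugates that stands on the list of NRF2 targets.

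Most of the pathway around these genes differed little. Of 28 other NRF2 target genes, 25 were measured. With Ecrg4(71-132) against Fc, 6 were higher and 8 lower in both sets, where 28.5% and 36.4% of all genes were. Their median difference was -0.033, beside -0.017 over all genes. Fth1, the ferritin heavy chain and the brightest of them, was 0.31 higher in set 1 and lower by -0.36 in set 2. The 75th percentile used to scale the arrays was 809 with Fc and 626 with Ecrg4(71-132) in set 1. In set 2 it was 495 and 612, and the part of this scaling in the values of Fth1 was not tested. The rest named from this list were chosen after their values were seen. Abcc1 was 0.26 and 0.82 higher, Sqstm1, an autophagy receptor that binds Keap1, 0.37 and 1.25, and Me1, the cytosolic malic enzyme, 0.22 and 0.29. Among the 8 lower in both sets, Gpx2 was at -0.23 and -0.74, Abcc4 at -0.24 and -0.34 and Cbr3 at -0.15 and -0.25. Gsr, the glutathione reductase, was 0.11 and -0.13, and Txn1, the thioredoxin that Txnrd1 reduces, was 0.13 and 0.00068. No gene of this or the next lists passed the test in a comparison between treatments.

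Of 12 regulators of NRF2, 5 were higher and 5 lower in both sets with Ecrg4(71-132) against Fc (median -0.053), beside 28.5% and 36.4% of all genes. Rbx1, a subunit of the ligase that Keap1 recruits and the brightest, was -0.014 and -0.14. Chosen after their values were seen, Maff, a small Maf partner, was 0.66 and 2.19 higher, Mafg, another, 0.18 and 0.47, and Bach1, a repressor that competes with NRF2 for its element and is best known for holding down Hmox1, was lower by -0.27 and -0.69. With Ecrg4(133-148) the same 3 genes were 0.18 and 0.83, 0.086 and 0.22, and -0.15 and -0.29. Keap1, named by the same choice, was 0.0098 in set 1 and -0.68 in set 2. Other antioxidant enzymes gave 7 of 19 higher and 8 lower with Ecrg4(71-132) (median -0.0099), beside 28.5% and 36.4% of all genes. Glrx2, a mitochondrial glutaredoxin and the brightest, was at 0.28 and -0.28. Its signs were those of Fth1, and the part of the scaling in them was not tested either. Nor was it tested whether this probe reports Glrx2 alone. Prdx5, chosen after its values were seen, was 0.25 and 0.76 higher. Among the 8 lower in both sets, and chosen the same way, Cat was at -0.074 and -0.35 and Txnrd2 at -0.16 and -0.28.

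Genes of cystine and glutamate transport and ATF4 targets were higher in both sets for 13 of 21 and lower for 3 with Ecrg4(71-132). With Ecrg4(133-148) the counts were 13 and 3 as well, and the medians were 0.10 and 0.084. Of all genes, 28.5% were higher in both sets with either fragment. Lower in both were 36.4% with Ecrg4(71-132) and 5846 of 19117 with Ecrg4(133-148). Slc3a2, the heavy chain that carries Slc7a11 to the membrane, had signals of 5.74, 5.62, 6.00 and 6.18 in set 1 against 5.84, 5.98, 6.32 and 6.62 in set 2. It was thus higher than with Fc by 0.56 and 0.64 with Ecrg4(71-132), and by 0.38 and 0.34 with Ecrg4(133-148). Slc1a4, a neutral amino acid transporter, was 0.52 and 0.85 higher with Ecrg4(71-132), Cth, which makes cysteine from cystathionine, 0.57 and 1.001, and Mthfd2, a mitochondrial folate enzyme, 0.28 and 0.44. Asns, the asparagine synthetase, was 0.12 and 0.37 higher. These 5 were chosen after their values were seen, from those higher in both sets. None of the 3 lower in both sets is named. Atf4, the brightest of the list, was 0.032 and 0.098. Slc1a2 and Slc1a3, glutamate transporters that are also on the astrocyte list, were among the 13, and neither was well above background with Fc in set 2.

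NF-kB targets had the largest median of the 7 lists with Ecrg4(71-132) against Fc, 1.18, and 16 of 17 were higher in both sets, beside 28.5% of all genes. Nfkbia, the inhibitor that NF-kB itself induces and the brightest, was 0.41 and 1.17 higher. Traf1 was 1.63 and 4.97 higher, Tnf 1.75 and 4.14 and Nfkbiz 1.39 and 2.36. With Ecrg4(133-148), 10 of 17 were higher in both sets (median 0.46), where 28.5% of all genes were, and Nfkbiz was -0.12 and 1.39. Sod2 thus lay below the median of the NF-kB targets in both sets with Ecrg4(71-132).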

How the data were processed

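Total RNA from 8 samples of microglia was labelled with Cy3 and hybridised to 1-colour Agilent arrays, per the labels' protocols. The submitters' processing notes name Agilent Feature Extraction 11.0.1.1, and the deposited processed intensity of each spot is background-subtracted, per the file headers. The authors also deposited a table of log2 values, which set against the intensities of the same array correlated at 1 and had column medians of -4.47 to -4.20. It is log2 signal less a constant per array, and the sources used here do not give how the constant was chosen.

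From the processed intensities, log2 values less each array's 75th percentile were taken, spots flagged as outlying were left out and spots of a probe averaged. Of 55681 probes, 28026 took a symbol through RefSeq and the others kept the name on the array. The 25247 probes that 1 or more groups had well above background on both arrays were kept, and the brightest kept probe stood for a gene, which left 19117 genes. Hmox1 and Prdx1 have 2 probes each. Levels of different genes come from different probes and were not compared.

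Group means over 8 arrays were fitted with limma 3.58.1 in R 4.3.3, with Benjamini-Hochberg adjustment over all genes within a comparison and a threshold of 0.05. The fit was run on simulated data with planted changes, as a check of the mean fitted change. How many planted changes it calls is not reported here. The main fit has no block. The titles number the arrays as sets, and the sets pair the samples: the differences between the sets correlated across genes at 0.783 to 0.862 between every 2 of the groups. Values from a fit that blocks on the set are therefore given as well. For Fc against PBS these are only counts of genes, and for the fragments against PBS only calls and adjusted p. For the other comparisons they include intervals of some members. The standard errors printed come from the main fit unless the block is named. The spread in the main fit includes the difference between the sets. The difference between the sets was fitted with treatment as a block. With 2 arrays per group, their number limits the precision.

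Alternatives were median scaling, quantile normalization, normexp background correction with offset 50 on the median spot signal, the deposited table, other filters, the mean of a gene's probes, an intensity trend, the block, and each array left out. The members and lists were chosen with earlier results of these data known. Named from each list were its brightest gene and up to 4 of the largest among those over 2-fold in both sets, and the 5 genes most like Sod2, Slc7a11 and Hmox1. Array annotation uses build mm9, so no coordinates were taken from it.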

Additional observations from a re-analysis of the deposited data

How the results depend on the processing

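The call counts between treatments were 0 under every setting that kept all 8 arrays, the replicate block included. When single arrays were left out, with or without that block, 0 to 481 genes were called for Ecrg4(71-132) against Fc and 0 to 1077 against PBS, both highest with the block and without the first Ecrg4(71-132) array. There the lone array of a group is taken to vary like the other groups. For set 2 against set 1, 18666 genes were called with no filter on dim probes, where more genes are tested. Of 540 values of the 10 genes under other settings with all arrays, 520 kept direction and side of the threshold, 10 turned sign and 10 passed the threshold. Those that turned lay near 0. Gclc with Ecrg4(133-148) against Fc was 0.024 with median scaling and 0.0012 in the deposited table. Nfe2l2 between the fragments was 0.0047 with quantile normalization and 0.0071 with normexp. Nqo1 with Fc against PBS was 0.049 with median scaling, and Gclc there was -0.054 with quantile normalization and -0.0064 with normexp. Nfe2l2 in set 2 against set 1 was -0.047, -0.13 and -0.022 with median scaling, quantile normalization and normexp. The cause was not tested. Those that passed were the set differences of Slc7a11, Srxn1 and Sod2, for example Slc7a11 with an intensity trend (adjusted p = 0.0302). Median scaling moved the median of all genes with Ecrg4(133-148) against PBS from 0.027 to 0.15, and with Fc against PBS to 0.12.

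Leaving out 1 array without the block turned 43 of 480 values, and with the block 15 of 400. Without the block it sets 1 array of one set against arrays of both, so that the set difference enters. For Ecrg4(71-132) against Fc the log2 ranges were Gclm -0.31 to 0.72, Gclc -0.66 to 0.49 and Prdx1 -0.37 to 0.73. For Ecrg4(133-148) against Fc the log2 ranges were Hmox1 -0.066 to 0.89, Gclm -0.41 to 0.61, Gclc -0.54 to 0.51, Srxn1 -0.097 to 0.64, Prdx1 -0.44 to 0.67 and Sod2 -0.065 to 0.49. For Ecrg4(133-148) against Ecrg4(71-132) the log2 ranges were Hmox1 -0.54 to 0.19, Nqo1 -0.036 to 0.13, Gclm -0.61 to 0.40, Gclc -0.51 to 0.64, Prdx1 -0.58 to 0.44 and Nfe2l2 -0.18 to 0.11. For Fc against PBS the log2 ranges were Hmox1 -0.32 to 0.64, Nqo1 -0.19 to 0.12, Gclm -0.62 to 0.40, Gclc -0.54 to 0.56, Txnrd1 -0.099 to 0.46, Srxn1 -0.21 to 0.53 and Prdx1 -0.51 to 0.66. For set 2 against set 1 the log2 range was Nfe2l2 -0.045 to 0.13. With 2 arrays per group, differences of the size seen for most of these genes could not be told from 0 without the block. All 10 genes were above background, so dim signal does not limit them.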

Other observations

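Genes of haem and iron handling stand next to Hmox1 in the breakdown of haem, and 12 of 14 were measured. With Ecrg4(71-132) against Fc, 4 were higher and 3 lower in both sets (median 0.094, beside -0.017 over all genes). Of all genes, 28.5% were higher and 36.4% lower in both. Alas1, the first enzyme of haem synthesis and the brightest of the list, stood at 7.13, 7.22, 7.54 and 7.79 with PBS, Fc, Ecrg4(133-148) and Ecrg4(71-132) in set 1. In set 2 it stood at 8.27, 8.44, 8.78 and 8.75. Lcn2, the lipocalin that binds bacterial siderophores, was 1.31 and 3.73 higher with Ecrg4(71-132) than with Fc. With Ecrg4(133-148) it was -0.12 in set 1 and 2.03 higher in set 2. None passed the limma test over all genes.

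The subunits of the NADPH oxidase, the phagocyte enzyme that makes superoxide, gave 4 of 8 measured genes higher in both sets with Ecrg4(71-132) against Fc and 0 lower (median 0.14). Of all genes, 28.5% were higher and 36.4% lower in both. With Ecrg4(133-148) 2 of the subunits were higher and 1 lower (median 0.0070), beside 28.5% of all genes higher and 5846 of 19117 lower. Cyba, the p22phox subunit and the brightest, was 0.069 and -0.078 with Ecrg4(71-132). In set 2 against set 1, 5 of the 8 were higher and 0 lower (limma with treatment as a block), beside 36.4% and 22.8% of all genes.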
